A study of Mus musculus with 6 samples.

Results

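The presynaptic vesicle cycle is the loop by which a nerve terminal fills, docks, fuses and recovers its transmitter vesicles, and 42 genes of this loop were followed in the hippocampus of Rsk2-KO and WT mice. A gene was taken when a probe set of the array was annotated to that symbol alone, and its probe set with the highest mean log2 signal over the 6 arrays stood for it. This gave 38 of the 42 genes, of 12393 genes with such a probe set on the array. Slc17a7, Sv2b, Rims1 and Synj1 had none and were not analysed here. Syn3, the synapsin of developing neurons, had signals of 3.59 to 18.7, under the filter of 19.2 (the 40th percentile of mean log2 signal), and was not tested. The other 37 were tested among 7867 genes: 18 of 18 listed fusion genes, 8 of 11 vesicle genes, 4 of 5 active zone genes and 7 of 8 endocytosis genes.

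All animals were male, 2 months old and on a C57BL/6J background. The Rsk2-KO group had 3 arrays and the WT group, normal littermates, had 3 arrays, each with RNA from pools of 2 hippocampi. Rsk2 is the kinase encoded by Rps6ka3, which acts downstream of ERK. How the Rsk2 allele was disrupted is not given in the sources used here, and nothing says whether pools shared animals, so p-values measure only the spread between these arrays.

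A vesicle fuses when the vesicle SNARE protein (a VAMP) zips together with syntaxin and SNAP-25 on the plasma membrane. Munc18 proteins (Stxbp genes) guide this assembly, complexins hold it ready and synaptotagmins trigger it when calcium enters. NSF and its SNAP adaptors then take the complexes apart, while clathrin, amphiphysin, endophilin and dynamin retrieve the membrane. Vesicle proteins such as synapsins and synaptophysin are abundant in hippocampal neurons, and the synapsins are known kinase substrates.

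Before the results, several facts bear on the labels and the tissue. Rps6ka3 had signals of 87.0 to 99.2 on the Rsk2-KO arrays and 59.7 to 89.2 on the WT arrays, so it was not lower in the libraries labelled Rsk2-KO (log2 difference 0.37, SE 0.18), and where its probe set lies relative to the disrupted part was not analysed here. Of 12 markers of hippocampal principal neurons, 9 had a probe set and 9 were above the filter. The arrays numbered 3, 1 of each group, stood apart from the other 4, and differences are therefore also given for the arrays numbered 1 and 2 alone and for Rsk2-KO 3 against WT 3. The summed signal of 6 vascular markers was 434 to 492 on the Rsk2-KO arrays and 594 to 629 on the WT arrays, and that of 7 microglial markers was 1216 to 1227 against 1336 to 1368. Neither sum overlapped between the groups, but each did once its brightest marker was left out. Without Vtn the vascular sums were 270 to 285 against 270 to 337. Without Csf1r the microglial sums were 595 to 691 against 651 to 742. Vtn itself did not overlap between the groups, and Csf1r did. Of the markers above the filter, 4 of 5 vascular and 6 of 7 microglial ones were lower, beside 56.4% of all genes. Tyrobp was lower without overlap, as was Trem2, with 15.2 and 11.5 on Rsk2-KO 2 and 3, under the filter. The part of these markers in the results was not tested. In RNA of whole tissue, fewer cells of a type and less RNA per cell cannot be told apart.

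Rsk2 is known to phosphorylate the transcription factor CREB, which binds the cAMP response element TGACGTCA, and promoters of 5 genes are shown for that reason. They are the 4 genes whose groups did not overlap (Stxbp3, Vamp4, Cltc and Syngr1) and Syn1, a gene with this element in the other direction of difference. These 5 were picked by their values here, so their promoters are descriptions. Each sequence is the 250 bases before an annotated start in RefSeq GRCm38.p6, 5′ to 3′ on the gene's strand, and capitals mark every TGACG core on either strand. Stxbp3 lies at chr3:108840503-108840752 on the minus strand, Vamp4 at chr1:162570265-162570514 on the plus strand, Cltc at chr11:86757568-86757817 on the minus strand, Syngr1 at chr15:80091084-80091333 on the plus strand and Syn1 at chrX:20920919-20921168 on the minus strand.
Stxbp3: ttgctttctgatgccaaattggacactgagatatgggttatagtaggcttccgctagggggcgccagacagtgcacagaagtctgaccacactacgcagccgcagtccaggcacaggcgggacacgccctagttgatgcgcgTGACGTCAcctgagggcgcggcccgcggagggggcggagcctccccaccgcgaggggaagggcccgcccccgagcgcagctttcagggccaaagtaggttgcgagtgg
Vamp4: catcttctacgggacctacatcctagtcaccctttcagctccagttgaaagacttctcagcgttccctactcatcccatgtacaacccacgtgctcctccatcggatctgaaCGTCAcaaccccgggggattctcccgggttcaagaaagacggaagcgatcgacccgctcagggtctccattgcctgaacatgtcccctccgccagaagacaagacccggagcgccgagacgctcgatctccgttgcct
Cltc: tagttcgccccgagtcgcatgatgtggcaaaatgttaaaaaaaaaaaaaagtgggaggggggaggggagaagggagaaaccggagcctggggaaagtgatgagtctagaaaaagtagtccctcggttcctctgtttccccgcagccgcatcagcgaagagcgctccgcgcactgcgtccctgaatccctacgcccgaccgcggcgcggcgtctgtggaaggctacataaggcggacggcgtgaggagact
Syngr1: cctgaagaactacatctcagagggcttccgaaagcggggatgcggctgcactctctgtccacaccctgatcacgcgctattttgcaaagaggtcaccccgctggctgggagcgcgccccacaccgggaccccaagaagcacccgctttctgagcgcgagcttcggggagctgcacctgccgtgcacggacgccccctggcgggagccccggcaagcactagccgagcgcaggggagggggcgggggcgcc
Syn1: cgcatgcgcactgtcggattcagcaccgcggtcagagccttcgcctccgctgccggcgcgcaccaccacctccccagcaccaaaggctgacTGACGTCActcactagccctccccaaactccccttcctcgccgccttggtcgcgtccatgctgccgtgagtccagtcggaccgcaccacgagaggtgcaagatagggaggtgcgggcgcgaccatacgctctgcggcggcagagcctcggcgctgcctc
The full element began 108 bases before the start of Stxbp3 and 159 bases before that of Syn1. Vamp4 held a single core, 138 bases before the start shown, its other annotated start held none, and Cltc and Syngr1 held none in this window. In all, 31 of the 37 genes matched the promoter table by symbol, with 38 promoters. The full element, which is its own reverse complement and so contains a core on each strand, was in 4 of the 38 (10.5%), those of Cltb, Sh3gl2, Stxbp3 and Syn1, against 1.55% of 32851 promoters of all genes. The core TGACG, searched on both strands, was in 28.9% of the 38 against 17.8% of all. The GC box GGGCGG, a motif bound by Sp1, was in 57.9% against 32.7%. The 38 promoters belong to tested genes, above the signal filter, whereas the 32851 include promoters of genes not tested. The sets were not matched in signal or base content, and these shares were not tested. The genes holding the full element did not share a direction: their log2 differences were 0.93 for Stxbp3, −0.22 for Syn1, −0.07 for Sh3gl2 and −0.08 for Cltb. A match describes the letters and not a site in use.

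No gene of the vesicle cycle passed the test between the groups. At an adjusted p of 0.05 in limma, 0 of 37 were called, beside 0% of all genes, and the adjusted p ran from 0.617 to 0.989. At an unadjusted p of 0.05 there were 2 of 37 (5.41%), Stxbp3 and Vamp4, beside 7.49% of all genes; both were higher, beside 4.04% of all genes higher and 3.44% lower. The groups did not overlap in 4 of 37 (10.8%), beside 14.2% of all genes. Of these, 3 were higher on the Rsk2-KO arrays, beside 5.47% of all genes, and 1 was lower, beside 8.76%. These shares lie near or below the background and are no result about the list. The median log2 difference was −0.04 over the 37 genes and −0.04 over all genes, with 17 genes above 0 and 20 below, beside 43.6% and 56.4% of all genes. By role the medians were 0.04 for fusion, −0.17 for vesicle, 0.12 for active zone and −0.08 for endocytosis genes. These medians were not stable. That of the fusion genes was −0.065 with the mean of all probe sets, −0.036 without probe sets ending in _x_at or _s_at and −0.014 without Rsk2-KO 3. With 1 array left out, that of the vesicle genes ran from −0.083 (without WT 2) to −0.31 (without WT 3) and that of the endocytosis genes from −0.040 (without Rsk2-KO 1) to −0.16 (without WT 2).

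**Figure D1:**
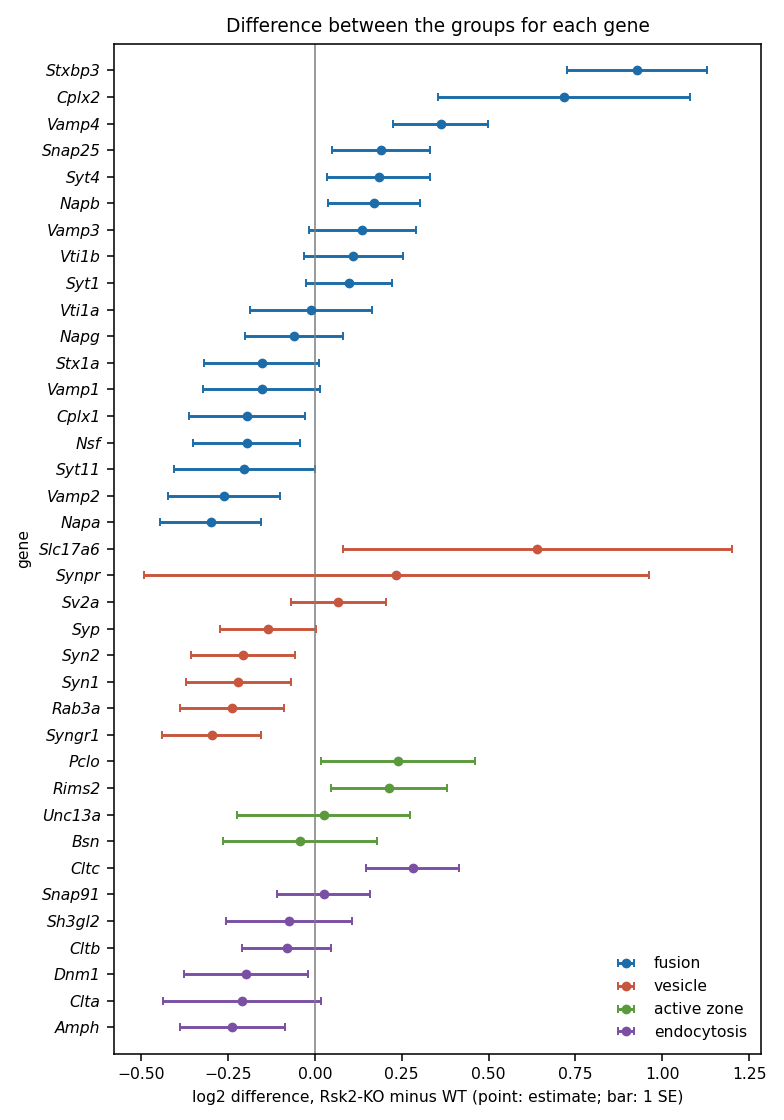
Log2 difference (Rsk2-KO minus WT) of each of the 37 genes on the horizontal axis, coloured by role; points are limma estimates and bars 1 SE. Stxbp3 lies farthest to the right, at 0.93, and the vesicle genes Syngr1, Rab3a, Syn1, Syn2 and Syp lie to the left of 0, at −0.30 to −0.14.

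Among the fusion genes, Stxbp3 had the largest difference of the whole list. It encodes Munc18-3, a Munc18 protein found in many cell types that works with syntaxin 4. Of its 2 probe sets, 1 was kept and the other was under the filter. Its signals were 90.5, 92.4 and 64.1 on the Rsk2-KO arrays and 38.5, 44.6 and 45.5 on the WT arrays. Every Rsk2-KO array lay above every WT array, and Rsk2-KO 3 was the lowest of its group. Group means were 82.3 ± 15.8 and 42.9 ± 3.81 (SD over 3 arrays each), a 1.90-fold higher level and a log2 difference of 0.93 (SE 0.20, limma adjusted p = 0.617). The arrays numbered 1 and 2 gave 1.14, and Rsk2-KO 3 against WT 3 gave 0.49. With array weights Stxbp3 passed (log2 difference 1.09, adjusted p = 0.0318), as it did without both arrays numbered 3 (adjusted p = 0.0244); these settings called 0.648% and 3.61% of all genes.

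Vamp4 was higher at every probe set that measured it. VAMP4 is the vesicle SNARE of endosomes and of the trans-Golgi network, and it also serves membrane retrieval at synapses. Its brightest probe set gave 346, 377 and 372 on the Rsk2-KO arrays and 253, 281 and 321 on the WT arrays, without overlap (365 ± 16.5 against 285 ± 33.9, SD, n = 3 each). The log2 difference was 0.36 (SE 0.14, limma adjusted p = 0.617). The other kept probe sets differed by 0.63 (SE 0.19) and 0.31 (SE 0.14) and did not overlap either. Between the arrays numbered 3 the 3 probe sets differed by 0.22, 0.45 and 0.14, all in the same direction as within the arrays numbered 1 and 2. Vti1a and Vti1b, endosomal SNAREs of which Vti1a pairs with VAMP4, differed by −0.01 (SE 0.18) and 0.11 (SE 0.14). A dimmer probe set of Vti1a was lower on every Rsk2-KO array than on any WT array, with a highest signal of 51.2 there and a lowest of 59.9 on the WT arrays (log2 difference −0.36, SE 0.17).

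**Figure D2:**
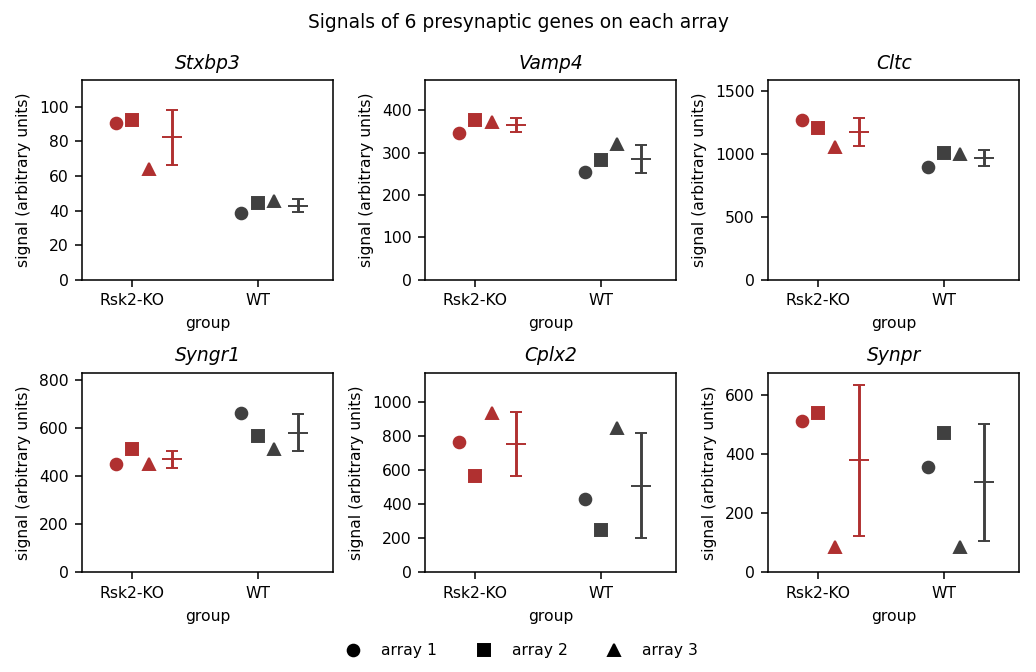
Signal on a linear scale for 6 genes, with a symbol per array number, and the mean with its SD (n = 3) as the bar beside each group. The groups are apart for Stxbp3, Vamp4 and Cltc, touch for Syngr1, and for Cplx2 and Synpr the arrays numbered 3 lie together in both groups.

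The core SNAREs of transmitter release did not differ beyond the spread between arrays. Snap25, one of the plasma membrane SNAREs, had signals of 2933, 2927 and 2709 on the Rsk2-KO arrays and 2261, 2815 and 2466 on the WT arrays, and the groups overlapped (log2 difference 0.19, SE 0.14). Stx1a, the plasma membrane syntaxin, differed by −0.15 (SE 0.17). Vamp2, the main synaptic vesicle SNARE of the forebrain, differed by −0.26 (SE 0.16), Vamp1, its close relative, by −0.15 (SE 0.17), and Vamp3, the form widespread outside neurons, by 0.14 (SE 0.15). The sign of Vamp3 is not settled: it was −0.06 both with the mean of all its probe sets and without probe sets ending in _x_at or _s_at, and its 5 kept probe sets ran from −0.43 to 0.14.

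Nsf, the ATPase that takes SNARE complexes apart, had signals of 2215, 2131 and 2823 on the Rsk2-KO arrays and 2802, 2495 and 2869 on the WT arrays. Rsk2-KO 3 lay within the WT range and the other Rsk2-KO arrays below it (log2 difference −0.20, SE 0.15). None of the adaptors that load NSF passed the test, and the groups overlapped at the brightest probe set of each. Napa, alpha-SNAP, had 519, 497 and 666 against 707, 691 and 655 (log2 difference −0.30, SE 0.15), and Napb, the brain form beta-SNAP, had 908, 950 and 1015 against 768, 858 and 934 (0.17, SE 0.13). The 5 kept probe sets of Napb differed by 0.02 to 0.24. A dimmer one of them was higher without overlap (339 to 358 against 264 to 337, 0.19, SE 0.14). Napg, gamma-SNAP, differed by −0.06 (SE 0.14). The log2 ratio of Napb over Napa was 0.78 ± 0.17 on the Rsk2-KO arrays and 0.32 ± 0.20 on the WT arrays (SD, n = 3 each), without overlap. Its difference of 0.47 gave an exact permutation p of 0.1, two-sided, which is the smallest that 3 arrays against 3 allow, and 0.267 after adjustment over 4 ratios. The 4 ratios were chosen after the values were seen, which neither the exact p nor its adjustment takes into account. No conclusion is therefore drawn from these p-values. The ratios of Cplx2 over Cplx1, Vamp4 over Vamp2 and Cltc over Clta overlapped between the groups (adjusted exact p = 0.267, 0.267 and 0.4). All 4 ratios use the brightest probe sets. The dimmer probe set of Napa differed by −0.13 (SE 0.16), and its groups also overlapped (112 to 136 against 118 to 155). Between the arrays numbered 3 the ratio of Napb over Napa differed by 0.09, against 0.66 within the arrays numbered 1 and 2.

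The complexins, which clamp and then promote fusion, included Cplx2, the fusion gene with the largest SE. Cplx2 had signals of 763, 564 and 937 on the Rsk2-KO arrays and 428, 250 and 848 on the WT arrays. The arrays numbered 3 were the highest of their groups, and within the arrays numbered 1 and 2 both Rsk2-KO arrays lay above both WT arrays. The log2 difference was 0.72 (SE 0.36, limma adjusted p = 0.617), and 1.00 within the arrays numbered 1 and 2 against 0.14 between the arrays numbered 3. Without the arrays numbered 3 Cplx2 passed (adjusted p = 0.0467), and with 1 array left out its log2 difference ran from 0.29 to 1.18, the lower value without WT 2 and the higher without WT 3. Cplx1 had a log2 difference of −0.20 (SE 0.17), and its dimmer probe sets gave −0.21 and −0.08, the last of them without overlap (333 to 342 against 347 to 372). Of the synaptotagmins, Syt1, the fast calcium sensor, differed by 0.10 (SE 0.12), Syt4, an activity-regulated form, by 0.18 (SE 0.15), and Syt11, a form that does not bind calcium, by −0.20 (SE 0.20).

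Among the genes of the vesicle itself, 5 of 8 had a log2 difference below 0, beside 56.4% of all genes, and none passed the test. Syngr1, which encodes synaptogyrin 1, a membrane protein of the vesicle, was the only gene of the 37 that was lower without overlap. Its signals were 447.4, 510.7 and 451.3 on the Rsk2-KO arrays and 662.2, 565.5 and 510.8 on the WT arrays. Rsk2-KO 2 and WT 3 were separated by the smallest of margins. Group means were 470 ± 35.5 and 579 ± 76.7 (SD over 3 arrays each), which is a log2 difference of −0.30 (SE 0.14, limma adjusted p = 0.617), and its dimmer probe set differed by −0.21.

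The synapsins coat vesicles and tether them to the reserve pool. Syn1 had signals of 772, 879 and 1032 on the Rsk2-KO arrays and 996, 1161 and 955 on the WT arrays (log2 difference −0.22, SE 0.15). Syn2 had 606, 584 and 669 against 768, 802 and 592 (−0.21, SE 0.15), and its dimmer probe set was lower on every Rsk2-KO array (371 to 403 against 412 to 552, −0.31, SE 0.14). Rab3a, the GTPase that brings vesicles to the active zone, had 792, 965 and 937 against 1185, 1102 and 901 (−0.24, SE 0.15). In these 3 genes both Rsk2-KO arrays numbered 1 and 2 lay below both WT arrays of these numbers, by −0.39, −0.40 and −0.39 on the log2 scale. The arrays numbered 3 differed the other way, by 0.11, 0.18 and 0.06. Syp, synaptophysin, differed by −0.14 (SE 0.14), and Sv2a, a vesicle glycoprotein, by 0.07 (SE 0.14).

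Synpr and Slc17a6 varied most between arrays. Synpr encodes synaptoporin, a relative of synaptophysin that is rich in the mossy fibre terminals of dentate granule cells. Its signals were 512, 541 and 85.3 on the Rsk2-KO arrays and 356, 470 and 86.5 on the WT arrays. Both arrays numbered 3 lay far below the other 4, by −2.43 on the log2 scale, while the next largest such gap below 0 in the list was −0.56, for Clta. The difference between the groups was 0.23 (SE 0.73), and its sign turned without Rsk2-KO 1 (−0.18), Rsk2-KO 2 (−0.22) or WT 3 (−0.51). The summed signal of the 9 principal neuron markers was 2063 and 2262 on the arrays numbered 3 and 2745 to 3134 on the others, but by mean log2 signal only 5 of the 9 were lower there and 4 were higher. Nptx1, a neuronal pentraxin, had 691 and 593 on the arrays numbered 3 against 1081 to 1416, and the pyramidal cell factor Neurod6 had 183 and 122 against 299 to 523. Prox1, the marker of granule cells, had 47.6 and 44.0 against 25.1 to 43.2. The part of these markers in the Synpr result was not tested. Slc17a6, the vesicular glutamate transporter of subcortical neurons, had signals of 30.4, 99.8 and 16.7 on the Rsk2-KO arrays and 26.4, 15.1 and 33.7 on the WT arrays. A single array, Rsk2-KO 2, stood out, and without it the log2 difference moved from 0.64 (SE 0.56) to −0.075; without WT 2 it was 0.31. Of 8 thalamic markers, 7 had a probe set, and their summed signal was 383 to 408 on the Rsk2-KO arrays and 362 to 445 on the WT arrays; Tcf7l2, Lef1 and Gbx2 were under the filter.

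**Figure D3:**
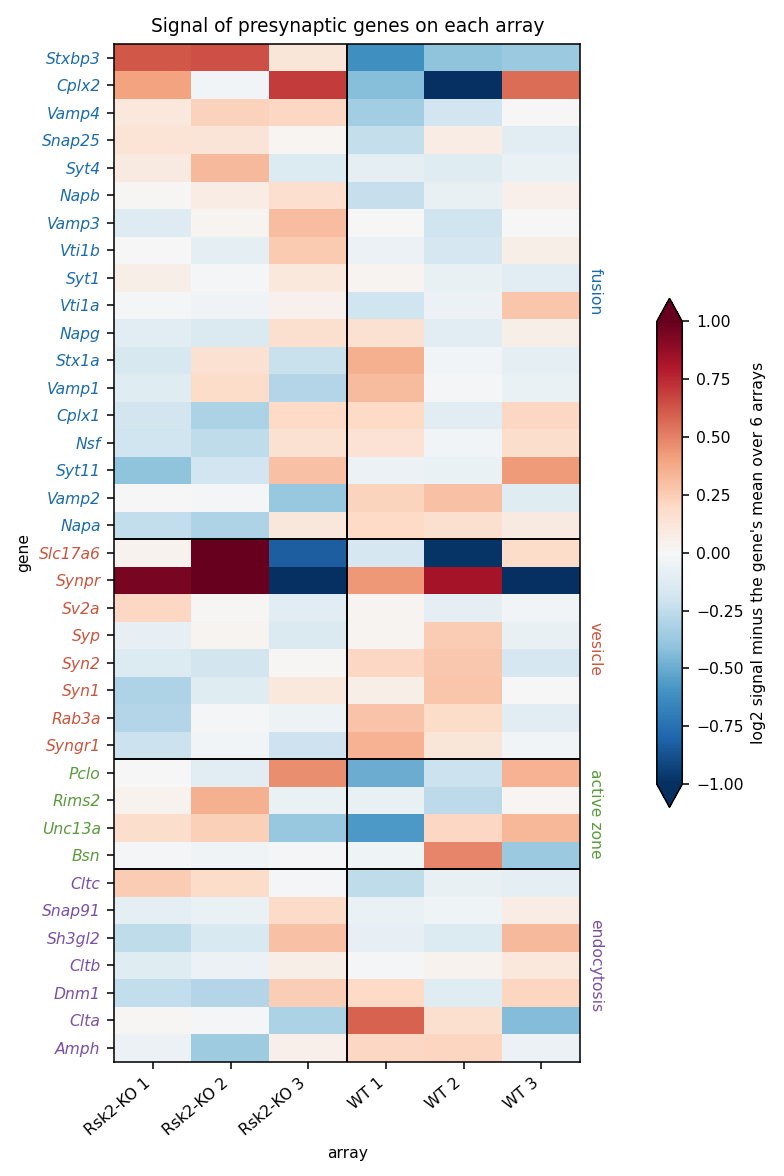
Log2 signal of each gene on each array minus the gene's mean over the 6 arrays, with genes in rows by role and arrays in columns; colours stop at −1 and 1. The row of Stxbp3 changes colour between the groups, and that of Synpr between the arrays numbered 3 and the others.

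Of the 4 active zone genes, 3 had a log2 difference above 0, beside 43.6% of all genes, and 0 were without overlap, beside 14.2%. Their median of 0.12 was −0.012 without WT 1, 0.027 without Rsk2-KO 2, 0.24 without WT 3 and 0.33 without both arrays numbered 3, so its sign is not settled. Pclo encodes piccolo, a giant scaffold of the release site. Its signals were 627, 585 and 867 on the Rsk2-KO arrays and 446, 543 and 799 on the WT arrays (log2 difference 0.24, SE 0.22), with the arrays numbered 3 the highest of each group. The difference of Pclo was 0.052 without WT 1, 0.066 without Rsk2-KO 3 and 0.47 without WT 3. Unc13a encodes Munc13-1, which primes vesicles for fusion. It had 189, 197 and 129 against 112, 192 and 210, with the lowest WT array below every Rsk2-KO array (0.03, SE 0.25), and the sign turned without Rsk2-KO 1 (−0.057), Rsk2-KO 2 (−0.087) or WT 1 (−0.25). Bsn, bassoon, differed by −0.04 (SE 0.22), and Rims2, which links Rab3 to the active zone, by 0.21 (SE 0.17). A dimmer probe set of Rims2 differed by 0.87 (SE 0.40), with 159, 170 and 76.7 against 73.2, 110 and 41.5.

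In the endocytosis class, Cltc alone was higher without overlap. It encodes the clathrin heavy chain, the building block of the coat, and had signals of 1266, 1204 and 1053 on the Rsk2-KO arrays and 891, 1006 and 996 on the WT arrays. The lowest Rsk2-KO array, Rsk2-KO 3, lay just above the highest WT array. Group means were 1174 ± 110 and 964 ± 64.1 (SD over 3 arrays each), which is a log2 difference of 0.28 (SE 0.13, limma adjusted p = 0.617), and 0.08 between the arrays numbered 3. The clathrin light chains Clta and Cltb, which regulate the coat, differed by −0.21 (SE 0.23) and −0.08 (SE 0.13). Dnm1, the dynamin that pinches vesicles off in neurons, had 1970, 1904 and 2763 against 2682, 2146 and 2715 (−0.20, SE 0.18), and its dimmer probe set was lower without overlap (492 to 627 against 645 to 734, −0.34, SE 0.14). Amph, amphiphysin, differed by −0.24 (SE 0.15), Sh3gl2, endophilin A1, by −0.07 (SE 0.18), and Snap91, the clathrin assembly protein AP180, by 0.03 (SE 0.14).

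The groups were also compared within the arrays numbered 1 and 2 and between those numbered 3. Within the arrays numbered 1 and 2, the groups did not overlap in 26 of the 37 genes (70.3%), 12 higher and 14 lower, beside 57.2% of all genes; in all genes 25% were higher and 32.2% lower. The difference within these arrays exceeded in size that between the arrays numbered 3 in 29 of 37 genes (78.4%), beside 58.7% of all genes. Both had the same sign in 20 of 37 genes (54.1%), beside 51.8% of all genes. They share no array, and their Spearman correlation was 0.03 over the 37 genes and 0.05 over all genes, as a description. A test of whether the difference changed between the arrays numbered 3 and the others called 0 of 37 genes (lowest adjusted p in limma 0.347), beside 0% of all genes. At an unadjusted p of 0.05 it gave 5 of 37 (13.5%), beside 11.1% of all genes. These were Syn2, Unc13a, Slc17a6, Napa and Amph. For the arrays numbered 3 this test has 1 array a group, whose spread is taken from the other arrays. With a replicate block, or with a term for the arrays numbered 3, 0 of 37 genes were called, beside 0.0127% of all genes each. With 1 array left out, 6, 8 and 16 of the 37 did not overlap without Rsk2-KO 1, 2 and 3, beside 17.5%, 20.8% and 36.5% of all genes. They were 5, 6 and 15 without WT 1, 2 and 3, beside 19.8%, 23.4% and 34.9%. Leaving out 1 array also turned the sign of Vti1a, Napg, Sv2a, Bsn, Snap91, Sh3gl2 and Clta.

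**Figure D4:**
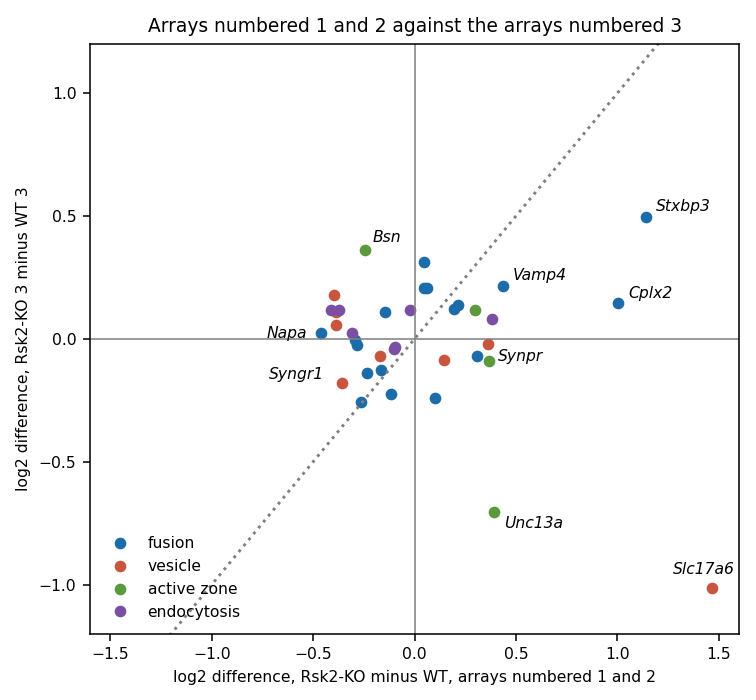
Log2 difference within the arrays numbered 1 and 2 (horizontal) against that between the arrays numbered 3 (vertical) for the 37 genes, coloured by role; the dotted line marks equal values. Stxbp3 (1.14 and 0.49) and Vamp4 (0.44 and 0.22) lie above 0 on both axes, and Slc17a6 (1.47 and −1.01) and Unc13a (0.39 and −0.71) have opposite signs.

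Probe sets of one gene gave a check that does not use the choice of the brightest. The 37 genes had 69 kept probe sets, of which 11 (15.9%) did not overlap between the groups, beside 13.9% of all kept probe sets. Of 22 genes with several kept probe sets, 19 (86.4%) had all of them of 1 sign, beside 62.0% of 3091 such genes on the array. The exceptions were Sh3gl2, Syt11 and Vamp3. The 3091 genes were not matched to the 22 in signal or in number of probe sets, and the shares were not tested. Probe sets of a gene share their arrays and are not replicates. The arrays numbered 3 split probe sets of the same gene. A dimmer probe set each of Vamp3, Rims2 and Syt4 differed on these arrays from the other 4 by −1.12, −1.11 and −1.06, whereas the brightest ones of these genes differed there by 0.23, −0.04 and −0.15. The brightest probe sets of Vamp3, Syt11 and Stx1a end in _x_at, and those of Clta and Rims2 in _s_at. Probe sets of both kinds may take up signal from related transcripts.

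**Figure D5:**
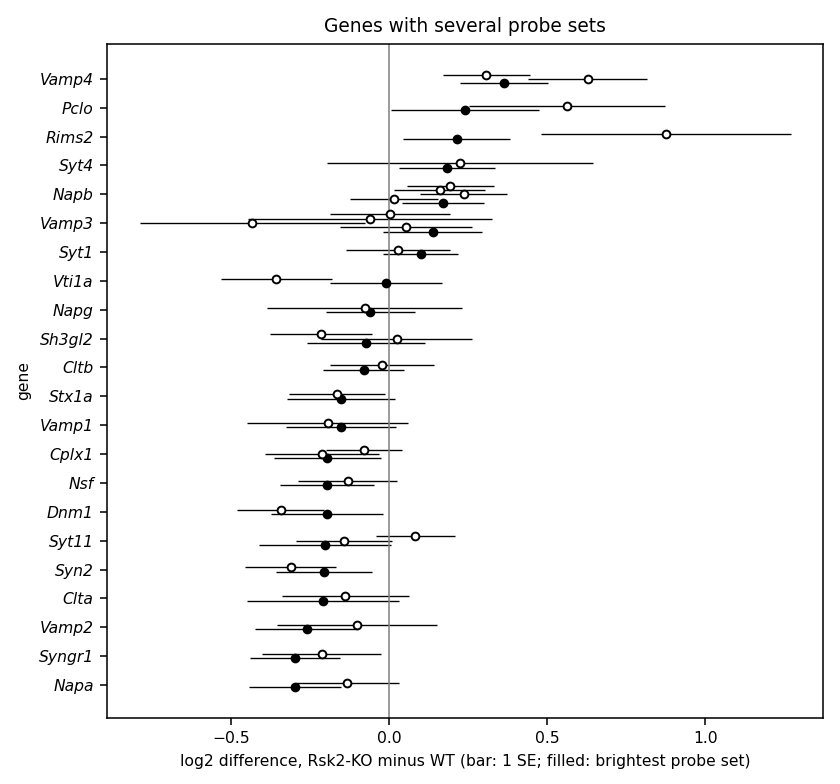
Log2 difference (Rsk2-KO minus WT) of every kept probe set of the 22 genes with several, with bars of 1 SE; filled points are the brightest probe sets. The 3 probe sets of Vamp4 lie at 0.31 to 0.63, and those of Vamp3 spread from −0.43 to 0.14.

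The span of each gene in the genome was set beside its difference. Across the 37 genes the Spearman correlation of the log2 difference with span in GRCm38.p6 was 0.29, near the 0.24 over 7860 genes. It was 0.28 over the 18 fusion genes, 0.31 over the 8 vesicle genes, 0.60 over the 4 active zone genes and 0.00 over the 7 endocytosis genes. Over the 75 other presynaptic genes described below it was 0.40. Genes are not independent, and all values come from the same 6 arrays. The active zone genes were the longest class, with a median span of 221 kb, and the vesicle and fusion genes had medians of 38.7 kb and 29.5 kb. The part of span in the class medians was not tested.

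Other genes of the pathway were counted from a list of 102, of which 80 had a probe set of their own symbol and 75 were tested. None of the 75 was called at an adjusted p of 0.05 in limma, and 6 (8.0%) had an unadjusted p under 0.05, beside 7.49% of all genes. The groups did not overlap in 14 (18.7%), 5 higher and 9 lower, beside 14.2%, and the median log2 difference was −0.07. These shares are near those of all genes, so the genes named next are descriptions. Of the genes that met both criteria, Rab3b, a relative of Rab3a, was higher, at 87.6, 129 and 92.1 against 81.6, 73.2 and 59.5 (log2 difference 0.52, SE 0.20). Vamp8, a SNARE mostly of non-neuronal secretion, was lower, at 65.0, 51.2 and 50.9 against 81.4, 77.8 and 80.2 (−0.53, SE 0.17). Syngr2, the form of synaptogyrin found mainly outside neurons, had 16.9, 26.3 and 15.2 against 34.7, 30.9 and 39.2. As 2 of its 3 Rsk2-KO signals lay under the filter of 19.2, it was tested only through its WT signals, and its difference supports nothing here. Slc6a17, a vesicular amino acid transporter, was lower, at 421, 416 and 491 against 554, 553 and 549 (−0.32, SE 0.13). For each of these 4 the limma adjusted p was 0.617. Vamp8 was lower where the vascular and microglial marker sums given above were lower, and the part of those markers was not tested. Stx4a, the known partner of Munc18-3 and named here after its values were seen, was also lower without overlap (−0.35, SE 0.17).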

How the data were processed

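Hippocampal RNA of 6 samples (3 Rsk2-KO, 3 WT, by sample title) was measured on mouse Affymetrix arrays, from 6 micrograms of total RNA each, per the labels' protocols. The deposited values are the intensity of each probe set, not log-transformed. The submitters' processing notes name MAS5, without a version or settings. Each array's 2% trimmed mean equals 100.0, so a difference in total RNA would be removed. The number of arrays limits the precision.

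The deposited intensity was log2-transformed here, with no further normalization and no offset. The table has 22690 probe sets: the platform annotation gives 1 symbol for 20393, several for 691 and none for 1606. Of the first, 20364 were matched by Entrez ID through RefSeq GRCm38.p6. Control probe sets and those under the 40th percentile of mean log2 signal were left out (13579 kept). The test was limma 3.58.1 under R 4.3.3 (intensity trend, two-sided, Benjamini-Hochberg over 7867 genes); tables were made in Python 3.11.15. On simulated data with 200 of 7867 genes changed, 19.8% of the genes changed 1.5-fold were called, 57.4% of those changed 2-fold and 83.4% of those changed 3-fold, with a mean of 6.4 false calls; the simulated noise was independent between genes.

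All genes of the list are named. Values on every array were set for those without overlap or with an unadjusted p under 0.05, and for the 2 brightest of each role. Those of Napa, Napb, Cplx2, Syn2, Synpr, Slc17a6 and of dimmer probe sets were added after their values were seen. So were the marker sums without 1 gene and the single vascular and microglial markers. The promoters shown were also picked after the values were seen. They had been planned only for genes that move together, which these genes do not. Members and lists were chosen with earlier results of these data known. Alternatives were quantile normalization, an offset of 16, no filter, array weights, a replicate block, a term for the arrays numbered 3, their exclusion, the mean of all probe sets, no _x_at or _s_at probe sets, each array left out and an adjusted p of 0.1.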

Additional observations from a re-analysis of the deposited data

How the results depend on the processing

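Whether the replicate numbers pair the arrays is not settled. Deviations from the group mean correlated between same-numbered arrays at 0.07, 0.37 and 0.40 for numbers 1, 2 and 3. The highest correlation of Rsk2-KO 1, 2 and 3 with a WT array of another number was 0.20, 0.08 and −0.10. Deviations from a mean of 3 arrays depend on each other, so these values cannot decide it. With the replicate block 1 gene over all genes was called, and 0 of the 37. With a term for the arrays numbered 3, 1 gene over all genes was called. With array weights 51 genes over all genes (0.648%) and 1 of the 37 were called, and the median of the 37 was −0.10. Without both arrays numbered 3 these were 284 (3.61%), 2 and −0.10. In that setting 26 of the 37 did not overlap, beside 57.2% of all genes. Of the 75 other presynaptic genes 4 were called there, beside the 3.61% of all genes. With 1 array left out, 5 to 16 of the 37 did not overlap, beside 17.5% to 36.5% of all genes, and 0 were called. Quantile normalization, an offset of 16, no filter and an adjusted p of 0.1 left the count called at 0.

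Of the 37 genes, 26 kept their sign under every alternative. Vti1a was 0.063 with array weights and 0.10 without both arrays numbered 3, Snap91 −0.016 and −0.021, and Vamp3 −0.061 with the mean of all probe sets and −0.062 without _x_at and _s_at probe sets. With 1 array left out, the ranges of the genes that changed sign were −0.12 to 0.12 for Vti1a, −0.16 to 7.4e-06 for Napg, −0.51 to 1.11 for Synpr, −0.019 to 0.14 for Sv2a, −0.075 to 1.21 for Slc17a6, −0.24 to 0.19 for Bsn, −0.25 to 0.22 for Unc13a, −0.065 to 0.076 for Snap91, −0.24 to 0.070 for Sh3gl2 and −0.48 to 0.033 for Clta. The cause was not tested. Fewer arrays were compared when arrays were left out. Signals near the filter of 19.2, as for Slc17a6, limit what can be seen.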
